A study of Homo sapiens with 12 samples.

Results

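The response of U251 cells to depletion of XRN2 was described from 6 libraries, of 12 in a series that also covers LN229. U251 and LN229 are established human glioblastoma lines. Of the U251 libraries, 2 came from cells given XRN2 siRNA (U251_siXRN2), 2 from cells given a control siRNA (U251_siNT_OTP) and 2 from mock-transfected cells (U251_Mock), and the libraries were chosen by their titles. U251 was grown in EMEM with 10% serum and LN229 in DMEM with 5% serum, and RNA was taken 72 hours after reverse transfection. XRN2 siRNA was compared with control siRNA in those 4 libraries alone, mock replicate 1 served as a second control, and mock replicate 2, whose stress transcripts were far above those of every other U251 library, is shown apart. The labels do not say whether replicates were separate cultures, and p-values therefore reflect the spread between these libraries alone, which may be technical. Each condition rests on 1 siRNA label and 1 line, and a response to loss of XRN2 cannot be told apart from other effects of that siRNA.

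XRN2 is the main nuclear exoribonuclease that degrades RNA from its 5′ end. It is best known for the torpedo model of termination, in which it enters at the uncapped end left by cleavage at the poly(A) site and follows RNA polymerase II until the polymerase leaves the template. It also trims precursors of ribosomal and small nucleolar RNA. The library kit is known for poly(A) selection without strand information. Products that lack a poly(A) tail would mostly be missed, and reads from overlapping genes cannot be told apart.

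XRN2 itself was low in both treated libraries. Its level was 29.1 and 24.5 CPM (counts-per-million, the exon reads scaled to library size with trimmed mean of M-values or TMM factors) with XRN2 siRNA, against 135.7 and 126.1 CPM with control siRNA, 129.8 CPM in mock replicate 1 and 138.1 CPM in mock replicate 2. The groups did not overlap, and 20.5% of the control siRNA level remained. The log2 fold change was −2.28 (SE 0.094, adjusted p = 8.51e-10 by edgeR's quasi-likelihood test), and against mock replicate 1 it was −2.27 (adjusted p = 8.52e-09). In GRCh38 coordinates the gene (ENSG00000088930) spans bases 21303304 to 21389827 of chromosome 20, plus strand. Its intron reads, which come from unspliced RNA, had a log2 difference of −0.29 (adjusted p = 0.624).

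Between 5596175 and 7180954 reads per U251 library fell in exons, covering 16660 to 17359 genes. Where a gene had no read, up to 3 reads could have been missed (0.418 to 0.536 CPM, counting error only). Introns took 7.60% to 8.32% of gene reads. The astrocytic protein GFAP stood at 4549 to 6465 CPM in the 5 libraries of the comparisons and at 2270 CPM in mock replicate 2. VIM, NES, SOX2 and SOX9 were also well above the floor, while AQP4, OLIG2 and ALDH1L1 were at or near 0, so that only some of the astrocytic and glial markers were found. The leukocyte gene PTPRC, the endothelial gene PECAM1 and the blood genes HBB and CD3E had no read in the 5 libraries, while the endothelial gene CDH5 was at 3.62 and 4.11 CPM with XRN2 siRNA, against 2.25 to 2.64 CPM in the 3 controls. The summed endothelial list was at 13.4 and 14.7 CPM with XRN2 siRNA, against 16.8 to 18.5 CPM in the controls, and the blood list at 64.4 and 67.4 CPM with XRN2 siRNA, against 47.1 to 63.1 CPM. Their part in the results was not tested. Among the 18 tested glial and neural stem markers none passed by edgeR, DESeq2 or limma-voom, and the median log2 fold change was 0.01. Of the 18, 4 had an unadjusted p under 0.05 by edgeR, against 2192 of all 12779 tested genes. The stress factor DDIT3 was at 389.7 CPM in mock replicate 2, against 12.4 to 17.2 CPM in the 5 other libraries.

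Across all genes the response was broad and small. Of 12779 genes tested, 497 (3.89%) had an adjusted p under 0.05 by edgeR and count as called. After XRN2 siRNA 194 (1.52%) were higher and 303 (2.37%) lower than after control siRNA. The median log2 fold change of the higher genes was 0.51, that of the lower genes −0.39, and that of all tested genes −0.00032. Only 34 higher and 9 lower genes changed at least 2-fold. The balance of calls turned without XRN2 siRNA replicate 2, to 50 higher and 45 lower. Without TMM factors the called genes were 223 higher and 256 lower. In 189 of the 194 higher genes both treated libraries lay above both control siRNA libraries and mock replicate 1, as they did in 17.6% of all tested genes, and in 300 of the 303 lower genes they lay below all 3, as in 18.5% of all tested genes. The count depends on which libraries enter the fit. It was 7 when the 6 U251 libraries shared 1 spread and 1, XRN2, when the 12 libraries of the series did. Leaving out 1 library changes a group mean as well as the spread. The count over all genes fell without XRN2 siRNA replicate 2 and rose without control siRNA replicate 2. Counts within lists from such fits, given below, are therefore not to be read against the shares of the main fit.

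**Figure D1:**
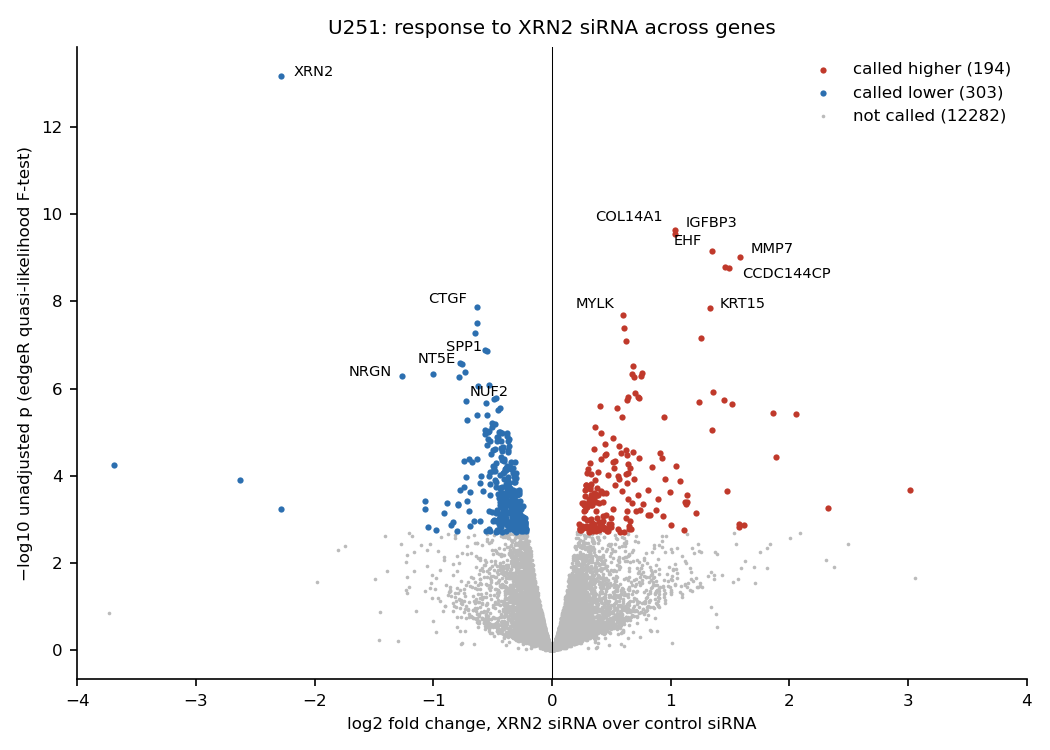
Unadjusted p (as −log10) against the log2 fold change of XRN2 siRNA over control siRNA in U251, 1 point per tested gene, with called genes in colour. XRN2 stands alone at the top left with a log2 fold change of −2.28, the points beyond 1 on the log2 scale are mostly on the right, and 3 genes with few or no reads in the control libraries (SULT1A4, AP001273.2 and AC125494.1) fall outside the axis.

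Against mock replicate 1, 204 of 13205 genes (1.54%) passed edgeR's test, 92 (0.697%) higher and 112 (0.848%) lower. This comparison uses the same treated libraries, and the single mock library was assumed to vary like the other groups. The count was 37 without XRN2 siRNA replicate 2, of which 26 were higher and 11 lower, and it was 863 without control siRNA replicate 1 and 861 without control siRNA replicate 2. Control siRNA against the same mock library gave 2 called genes (0.0151%), both lower, AP001273.2 and AC116366.3, with 586 genes at an unadjusted p under 0.05. AP001273.2 had 6.26 and 9.33 CPM with XRN2 siRNA, 0.749 and 0 CPM with control siRNA and 10.4 CPM in mock replicate 1, so its call as higher after XRN2 siRNA does not hold against mock. Only 0.917% of its reads were unique to it.

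The 14 higher genes with the smallest p encode proteins of varied function. These genes and the 14 lower ones were chosen as wholly apart from the 3 controls, so that their separation is a result of the choice. COL14A1, a collagen that sits on the surface of collagen fibrils, had 905.1 and 1029 CPM with XRN2 siRNA, against 441.5 and 502.3 CPM with control siRNA and 446.5 CPM in mock replicate 1, with log2 fold change 1.04 (SE 0.073, adjusted p = 1.19e-06). IGFBP3 (ENSG00000146674; chromosome 7, 45912245 to 45921874), a secreted carrier of insulin-like growth factors, had 201.8 and 179.5 CPM with XRN2 siRNA, against 93.7 and 92.5 CPM with control siRNA and 88.4 CPM in mock. For both genes the lowest treated library stood well above the highest control library, and for IGFBP3 the log2 difference was 1.04 (SE 0.074, adjusted p = 1.19e-06 by edgeR). MMP7, the smallest of the secreted matrix metalloproteinases, had 54.6 and 63.3 CPM with XRN2 siRNA, against 17.2 and 22.1 CPM with control siRNA and 23.5 CPM in mock, with log2 fold change 1.59 (SE 0.124, adjusted p = 2.47e-06). MYLK, the kinase that phosphorylates myosin light chain, changed less at a high level, with 763.4 and 790.4 CPM after XRN2 siRNA, against 502.0 and 526.4 CPM after control siRNA.

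EHF, a transcription factor of the ETS family typical of epithelia, had 90.1 and 109.7 CPM with XRN2 siRNA, against 37.3 and 41.0 CPM with control siRNA, 51.0 CPM in mock replicate 1 and 18.1 CPM in mock replicate 2. Its log2 fold change was 1.35 (SE 0.103, adjusted p = 2.28e-06), and its intron reads rose as well, by 1.64 on the log2 scale. KRT15, a keratin of basal epithelial cells, had 123.3 and 156.2 CPM with XRN2 siRNA, against 52.6 and 58.7 CPM with control siRNA and 56.4 CPM in mock. The neighbouring keratin gene KRT13, which starts 8038 bases after the end of KRT15 on the same strand of chromosome 17, had 19.9 and 22.6 CPM with XRN2 siRNA, against 7.94 and 10.1 CPM with control siRNA, and a log2 fold change of 1.24 (adjusted p = 0.000605). KRT13 is named here after its values were seen. The listed epithelial markers did not follow: none of the 3 that were tested passed by edgeR, DESeq2 or limma-voom or had an unadjusted p under 0.05, and the summed level of the list was 20.6 and 22.5 CPM with XRN2 siRNA, against 21.6 to 25.7 CPM in control siRNA and mock replicate 1.

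Of the other higher genes, NFASC, an adhesion molecule of the axon initial segment, had 230 and 232 CPM with XRN2 siRNA, against 151.2 and 151.5 CPM with control siRNA. SESN3, a sestrin that restrains mTORC1 under stress, had a log2 fold change of 0.63, and ARRDC3, an alpha-arrestin that binds membrane receptors, one of 0.68. HMOX1, the enzyme that degrades heme, had 62.9 and 68.6 CPM with XRN2 siRNA, against 39.7 and 38.0 CPM with control siRNA and 37.7 CPM in mock replicate 1, and its level of 109.6 CPM in the stressed mock library was higher than in any of them. CP, the copper-carrying ferroxidase ceruloplasmin, had 235 and 252.1 CPM with XRN2 siRNA, against 137.5 and 168.7 CPM with control siRNA. Only 16.2% of the SESN3 reads were unique to that gene, and its call held with unique reads.

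**Figure D2:**
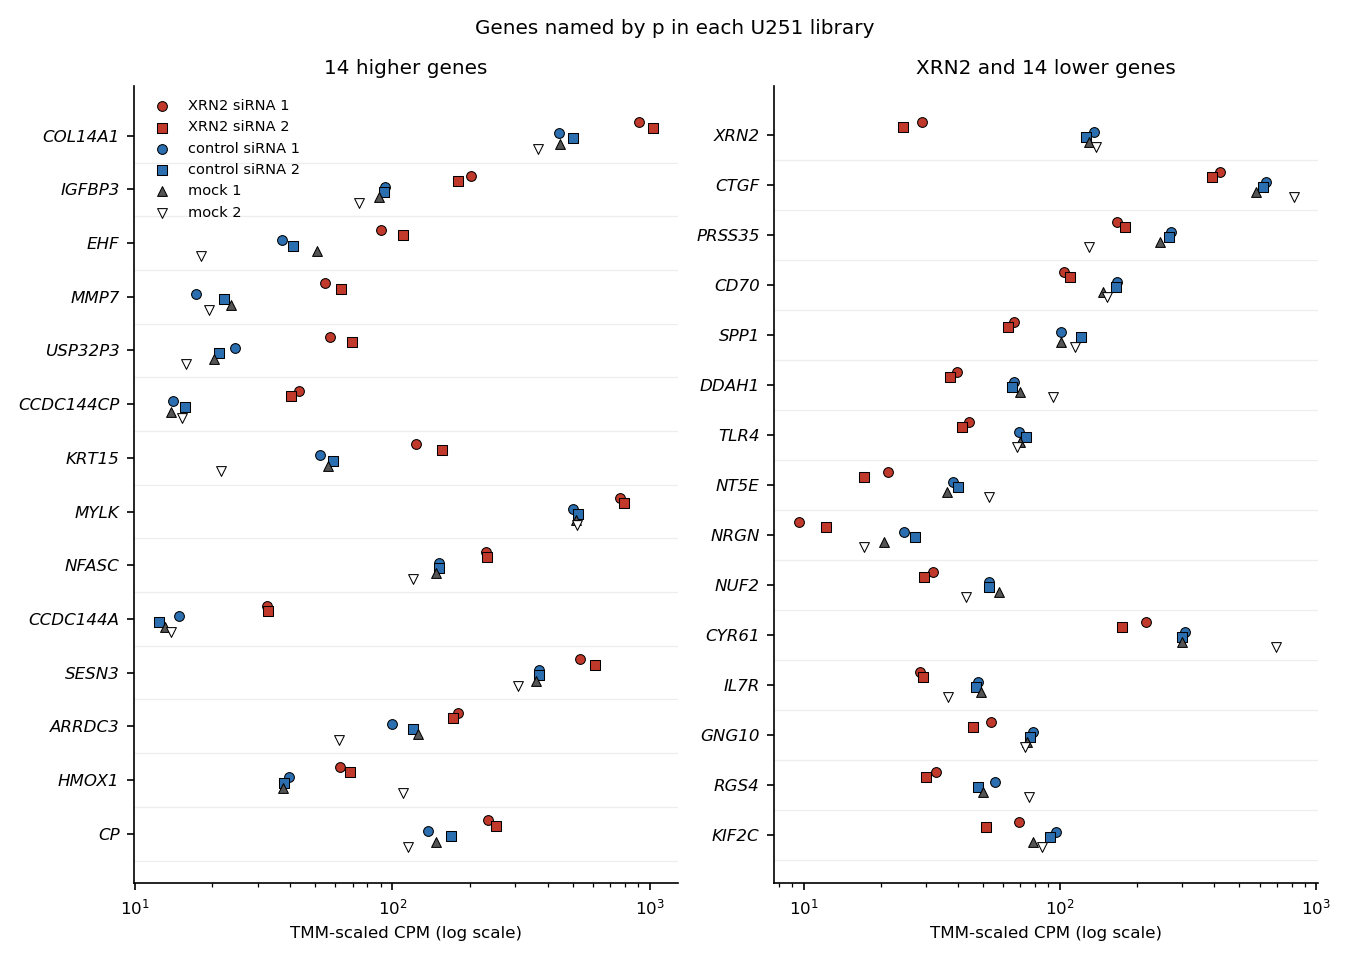
TMM-scaled CPM on a log axis of the 14 higher genes (left) and of XRN2 and the 14 lower genes (right) with the smallest p in each U251 library. The genes were chosen so that the red XRN2 siRNA points lie apart from the blue control siRNA points and the filled mock 1 triangle, while the open triangle of mock 2 lies elsewhere for several genes, for example at 697 CPM for CYR61 and 109.6 CPM for HMOX1.

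The lower genes with the smallest p include secreted CCN proteins, surface receptors and enzymes, and mitotic genes. CTGF (ENSG00000118523; chromosome 6, 131948176 to 131951373), a matrix-associated protein of the CCN family, had 419.6 and 390.9 CPM with XRN2 siRNA, against 635.1 and 620.8 CPM with control siRNA and 580.4 CPM in mock replicate 1. Its log2 fold change was −0.63 (SE 0.059, adjusted p = 1.99e-05), and the groups did not overlap. CYR61, its family member, had 216.8 and 175.1 CPM with XRN2 siRNA, against 306.1 and 299.6 CPM with control siRNA and 299.6 CPM in mock replicate 1. NT5E, the ectoenzyme that turns extracellular AMP into adenosine, had 21.4 and 17.2 CPM with XRN2 siRNA, against 38.2 and 39.99 CPM with control siRNA, a log2 difference of −1.01 (SE 0.123, edgeR adjusted p = 0.000243). These 3 genes also passed against mock replicate 1, with adjusted p of 0.00153 for CTGF, 0.00551 for CYR61 and 0.00694 for NT5E.

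CD70, a membrane ligand of the TNF family, had 103.6 and 109 CPM with XRN2 siRNA, against 167.1 and 166.1 CPM with control siRNA. SPP1, the secreted phosphoprotein osteopontin, had 66.0 and 62.9 CPM with XRN2 siRNA, against 100.5 and 121 CPM with control siRNA. TLR4, the receptor for bacterial lipopolysaccharide, had a log2 fold change of −0.73, and IL7R, the receptor chain for interleukin-7, one of −0.72. NRGN, a calmodulin-binding protein best known from neurons, had the largest change of the 14, with 9.59 and 12.2 CPM after XRN2 siRNA, against 24.7 and 27.3 CPM after control siRNA and 20.7 CPM in mock (log2 fold change −1.26, SE 0.155). DDAH1, which clears the nitric oxide synthase inhibitor dimethylarginine, had a log2 fold change of −0.76 and RGS4, which shortens G-protein signals, one of −0.72. PRSS35 (−0.63), a protease-like secreted protein, and GNG10 (−0.63), a G-protein subunit, complete the named lower genes beside NUF2 and KIF2C. Only 15.3% of the reads of DDAH1 and 28.5% of those of GNG10 were unique, and both calls held with unique reads.

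Of the 36 lists, that of mitotic genes had the largest share of called members. Of 80 tested genes of mitosis and the G2/M transition, 39 were called lower and none higher, against 2.37% of all tested genes lower, and all 80 had a log2 fold change below 0 (median −0.37, against −0.00032 over all genes). In each of the 39 both treated libraries lay below the 3 controls, as in 300 of all 303 lower genes, so this largely follows from the call. Among the 80 tested, called or not, 68 lay below all 3, against 18.5% of all tested genes. Against mock replicate 1, 12 were called, all lower, where 0.848% of all tested genes were, and again all 80 lay below 0 (median −0.35). The count moved with the libraries used, since 3 of the 80 were called lower without XRN2 siRNA replicate 2, 53 without XRN2 siRNA replicate 1 and 69 without control siRNA replicate 2.

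NUF2, a subunit of the kinetochore complex that holds microtubules, had 31.8 and 29.6 CPM with XRN2 siRNA, against 53.01 and 52.71 CPM with control siRNA and 58.1 CPM in mock replicate 1. FOXM1, a transcription factor of genes expressed in G2, had 108.6 and 95.2 CPM with XRN2 siRNA, against 154.1 and 145.6 CPM with control siRNA and 145.6 CPM in mock replicate 1. UBE2S, the ubiquitin-conjugating enzyme that lengthens chains on targets of the anaphase-promoting complex, had 164.3 and 136.2 CPM with XRN2 siRNA, against 213.6 and 227.7 CPM with control siRNA. In all 3 the groups were apart, with log2 fold changes of −0.78 for NUF2, −0.55 for FOXM1 and −0.55 for UBE2S, and each passed against mock as well. CDC20, an activator of the same complex, had 111.5 and 88.1 CPM with XRN2 siRNA, against 151.1 and 141.3 CPM with control siRNA and 135.9 CPM in mock (log2 fold change −0.55, SE 0.091, adjusted p = 0.0031). KIF2C, a kinesin that takes microtubules apart at centromeres, had 69.4 and 51.6 CPM with XRN2 siRNA, against 96.6 and 91.7 CPM with control siRNA and 78.7 CPM in mock. CENPA, the histone variant of centromeres, passed narrowly (log2 fold change −0.56, adjusted p = 0.0483), and its control siRNA libraries stood at 36.1 and 26.3 CPM. CDC20, KIF2C and CENPA did not pass against mock replicate 1, where their adjusted p-values were 0.0743, 0.247 and 0.292.

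The remaining called members cover most steps of mitosis. Cyclins and their kinase were lower, with log2 fold changes of −0.40 for CCNB1, −0.44 for CCNB2, −0.43 for CCNA2 and −0.49 for CDK1. The chromosomal passenger genes AURKB (−0.42), BIRC5 (−0.39) and CDCA8 (−0.41) were lower by similar amounts. So were PLK1 (−0.40), a kinase of spindle assembly, and PTTG1 (−0.52), the securin that guards sister chromatids. Condensin subunits NCAPD2 (−0.31) and NCAPH (−0.42), the cytokinesis genes KIF23 (−0.42), ANLN (−0.39) and RACGAP1 (−0.41), and TOP2A (−0.34), which untangles chromosomes, also passed. Intron reads of CDK1 and ASPM, a spindle-pole gene, were lower too, with log2 fold changes of −0.87 (adjusted p = 0.0126) and −0.77 (adjusted p = 0.047).

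Against the pooled control siRNA mean the 2 treated libraries stood at different levels. Replicate 2 was the lower library in the XRN2 siRNA pair and in the control siRNA pair. Relative to the mean of the control siRNA libraries, the median mitotic gene stood at −0.26 and −0.49 on the log2 scale in XRN2 siRNA replicates 1 and 2, at 0.079 and −0.079 in the control siRNA libraries, and at −0.015 in mock replicate 1. Mock replicate 2, the stressed library, stood at −0.22, near XRN2 siRNA replicate 1. In XRN2 siRNA replicate 1, 78 of the 80 genes lay below the control siRNA mean, in replicate 2 all 80, and in mock replicate 2 68. Of the control siRNA libraries, replicate 1 had 11 genes below that mean and replicate 2 had 69. Bulk RNA cannot tell fewer cells in a phase of the cycle from less RNA per cell.

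**Figure D3:**
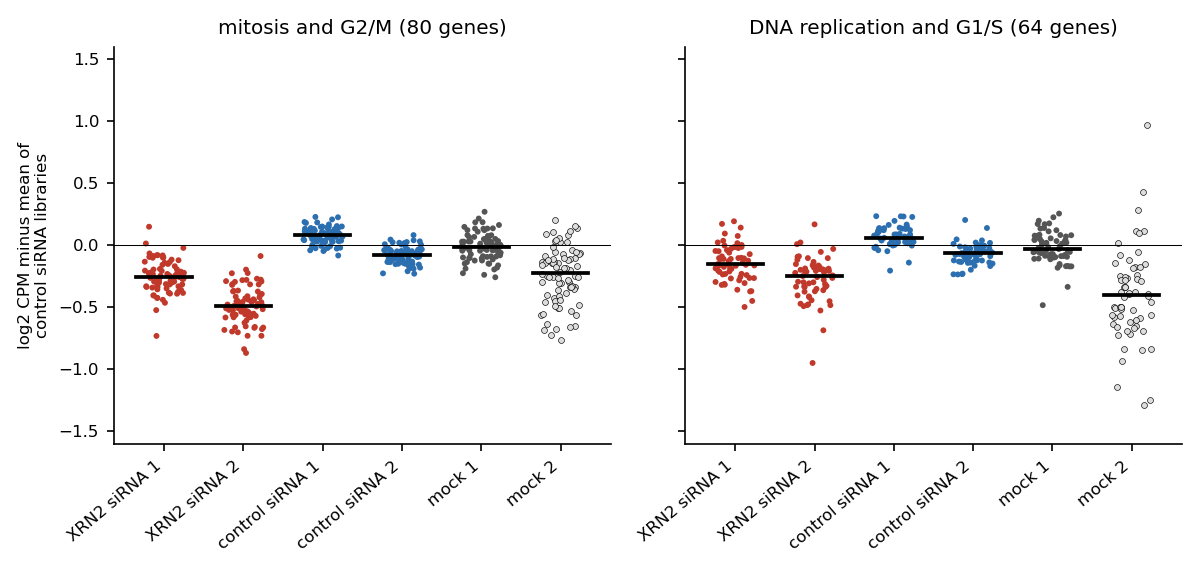
Log2 CPM of each tested mitotic (left) and replication (right) gene minus the mean log2 CPM of the control siRNA libraries, by U251 library, with medians as bars. Medians of the mitotic list are −0.26 and −0.49 in the XRN2 siRNA libraries, near 0 in control siRNA and mock 1, and −0.22 in mock 2.

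Of 64 tested genes of DNA replication and the G1/S transition, 6 were lower and none higher (median −0.19), where 2.37% of all tested genes were lower, and 59 lay below 0. The median of the list stood at −0.15 and −0.24 in the XRN2 siRNA libraries relative to the control siRNA mean, at −0.027 in mock replicate 1 and at −0.40 in mock replicate 2, which was lower than both treated libraries. The called genes were TK1 and TYMS, enzymes of thymidylate synthesis, RRM2, a ribonucleotide reductase subunit, MCM7 of the replicative helicase, POLA2 of the primase complex and CHAF1A, a histone chaperone. TYMS had 276.1 and 239.3 CPM with XRN2 siRNA, against 348.6 and 315.6 CPM with control siRNA. None of the 64 passed against mock replicate 1 by edgeR, where 15 had an unadjusted p under 0.05, all lower. Against control siRNA none passed without XRN2 siRNA replicate 2 and 17 did without control siRNA replicate 2. Of 48 genes of break repair and checkpoints, H2AFX (−0.40), FANCD2 (−0.47) and MDC1 (−0.34) were lower, where 12 were without control siRNA replicate 2 and none without XRN2 siRNA replicate 2. MDC1 lay only just below mock, with 59.1 and 61.0 CPM after XRN2 siRNA, against 61.7 CPM in mock replicate 1. No replication-dependent histone passed among 7 tested by edgeR, DESeq2 or limma-voom. Their median was 0.50, and 4 had an unadjusted p under 0.05, all higher, where 2192 of all 12779 tested genes had such a p.

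Promoter sequence is shown for the called mitotic genes with the smallest p that have an entry and for CTGF, because mitotic promoters are known for short elements bound by cell-cycle repressor and NF-Y complexes and CTGF for TEAD elements. The sequences are RefSeq windows of 300 bases of GRCh38.p14, 5′ to 3′ on the gene's strand, with 250 bases before and 50 after the start. Capitals mark TTTGAA or TTTAAA (elements of the CHR type), CCAAT, and TTCCCGC or TTGGCGC (of the E2F type) on either strand in the mitotic genes, and GGAATG, the TEAD core, in CTGF, where the motif was chosen after the values were seen. The windows are chr1:163321704-163322003 (plus strand) for NUF2, chr19:55407739-55408038 (minus) for UBE2S, chr1:43358731-43359030 (plus) for CDC20, chr1:44739587-44739886 (plus) for KIF2C and chr6:131951323-131951622 (minus) for CTGF.
NUF2: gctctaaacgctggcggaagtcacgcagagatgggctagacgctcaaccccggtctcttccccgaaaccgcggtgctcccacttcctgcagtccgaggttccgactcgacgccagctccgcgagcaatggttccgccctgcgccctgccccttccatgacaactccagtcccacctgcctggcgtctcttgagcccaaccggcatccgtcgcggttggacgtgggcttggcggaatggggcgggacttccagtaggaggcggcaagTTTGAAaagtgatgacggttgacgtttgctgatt
UBE2S: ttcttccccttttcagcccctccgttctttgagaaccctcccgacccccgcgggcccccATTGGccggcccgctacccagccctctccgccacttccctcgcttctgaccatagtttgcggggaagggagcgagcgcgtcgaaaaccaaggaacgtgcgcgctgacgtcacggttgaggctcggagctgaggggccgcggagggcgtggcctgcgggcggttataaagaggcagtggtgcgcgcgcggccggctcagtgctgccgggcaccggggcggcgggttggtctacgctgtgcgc
CDC20: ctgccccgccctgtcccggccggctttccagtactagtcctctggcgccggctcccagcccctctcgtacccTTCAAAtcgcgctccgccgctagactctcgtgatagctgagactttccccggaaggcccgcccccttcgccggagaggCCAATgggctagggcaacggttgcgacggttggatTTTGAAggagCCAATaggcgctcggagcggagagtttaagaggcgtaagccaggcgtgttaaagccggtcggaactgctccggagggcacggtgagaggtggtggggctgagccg
KIF2C: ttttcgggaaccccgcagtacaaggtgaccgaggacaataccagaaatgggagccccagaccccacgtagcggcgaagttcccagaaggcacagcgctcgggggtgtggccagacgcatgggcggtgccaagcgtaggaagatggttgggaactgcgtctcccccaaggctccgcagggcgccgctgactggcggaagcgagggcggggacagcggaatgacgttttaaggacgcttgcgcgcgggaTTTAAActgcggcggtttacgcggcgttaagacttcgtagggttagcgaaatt
CTGF: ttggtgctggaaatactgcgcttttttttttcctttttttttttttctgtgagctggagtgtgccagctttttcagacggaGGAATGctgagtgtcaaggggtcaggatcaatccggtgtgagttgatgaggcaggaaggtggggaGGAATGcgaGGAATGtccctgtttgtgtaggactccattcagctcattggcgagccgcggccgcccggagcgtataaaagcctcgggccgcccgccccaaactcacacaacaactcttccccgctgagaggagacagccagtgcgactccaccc

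In CDC20 the window holds TTTGAA 65 bases before the start and, on the opposite strand, 178 bases before it, and CCAAT 100 and 55 bases before it. KIF2C has TTTAAA across the start, NUF2 TTTGAA from base 17 after it, and UBE2S only a CCAAT on the opposite strand. Of the 39 called mitotic genes 31 had a window, and 26 of them (83.87%) held TTTGAA or TTTAAA, as did 26 of 36 mitotic genes that were tested and not called (72.22%), 15.57% of all tested genes and 24.26% of all promoters in the table. CCAAT was in 77.42% of the called and 63.89% of the uncalled mitotic windows, against 37.37% of all tested genes and 35.7% of all promoters. The E2F-type letters were in 16.13% of the called mitotic windows, against 14.95% of all tested genes and 9.33% of all promoters. By motif, TTTGAA was in 64.52% of the called and 66.67% of the uncalled mitotic windows. TTTAAA was in 41.94% and 13.89%, a difference that was not tested. Windows that hold both motifs count under each. A match is a description of the window, not a site. CTGF holds GGAATG at 3 places, 169, 104 and 95 bases before the start, where 10.72% of all tested genes and 14.05% of all promoters hold it at least once. Of the 303 lower genes 240 had a window, and 12.92% of those held GGAATG. Of the 6 lower YAP and TEAD targets 4 had a window, and CTGF was the 1 that held it. GGAATG also occurs, unmarked, in the windows of NUF2 and KIF2C, and was in 6.45% of the called and 11.11% of the uncalled mitotic windows.

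YAP and TEAD are the growth-control factors downstream of the Hippo kinases. Of 32 tested genes known as their targets, 6 were lower and 1 higher, where 2.37% of all tested genes were lower and 1.52% higher, with a median log2 fold change of −0.18. Without XRN2 siRNA replicate 2 the lower ones numbered 3, and without control siRNA replicate 2 they numbered 10. The lower ones were CTGF, CYR61 and NT5E, given above, CRIM1 (−0.37), AXL (−0.29) and AMOTL1 (−0.42). CRIM1, a transmembrane protein that binds growth factors, had 326.1 and 302.8 CPM with XRN2 siRNA, against 420.7 and 390.9 CPM with control siRNA. IGFBP3, the exception, was the list's highest. In the stressed mock library CTGF (815 CPM), CYR61 (697 CPM) and CRIM1 (635.1 CPM) were all above every other U251 library.

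Adhesion and matrix genes moved both ways. Of 44 integrins, laminins and focal adhesion genes, 5 were lower and 2 higher (median −0.10), where 2.37% of all tested genes were lower and 1.52% higher, with 2 lower when either XRN2 siRNA library was left out and 8 without control siRNA replicate 2. VCL, the vinculin of focal adhesions, had 401.7 and 358.5 CPM with XRN2 siRNA, against 523.4 and 529.7 CPM with control siRNA and 525.2 CPM in mock. ITGB1, the beta subunit shared by many integrins, had 847.5 and 758.4 CPM with XRN2 siRNA, against 1076 and 1106 CPM with control siRNA and 1148 CPM in mock. ITGB4, the beta subunit of the hemidesmosome integrin, was higher instead, with 705.7 and 745.3 CPM after XRN2 siRNA, against 539.6 and 616.3 CPM after control siRNA. ITGB5 (−0.31), LAMB1 (−0.23) and ITGA9 (−0.33) were lower, and TLN2 (0.34), a talin, was higher.

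Of 40 collagens and matrix glycoproteins 6 were lower and 2 higher (median −0.02), where 2.37% of all tested genes were lower and 1.52% higher, with 2 lower without XRN2 siRNA replicate 2, and 6 higher without control siRNA replicate 2. COL12A1, a fibril-associated collagen like COL14A1, was lower, with 538.4 and 488.6 CPM after XRN2 siRNA, against 733.8 and 639 CPM after control siRNA. TNC, the tenascin of glioma matrix, had 1944 and 2020 CPM with XRN2 siRNA, against 1551 and 1634 CPM with control siRNA (log2 fold change 0.32, adjusted p = 0.00536). MATN2 (0.35) was higher as well, and EFEMP1 (−0.29), SPOCK1 (−0.28) and NID1 (−0.26) were lower beside CTGF and CYR61. Of 36 genes of epithelial-mesenchymal transition and motility, CDH11 and TNC were higher and PLAUR, AXL and PLAU lower (13.9% called, against 3.89% of all tested genes). CDH11, a mesenchymal cadherin, had 927.2 and 973.6 CPM with XRN2 siRNA, against 707.1 and 726.5 CPM with control siRNA. PLAUR, the receptor of the protease urokinase, had 31.0 and 31.2 CPM with XRN2 siRNA, against 43.4 and 58.2 CPM with control siRNA, and the control libraries were far from each other. Of 20 matrix metalloproteinases and their inhibitors, MMP7 was higher and ADAM9 (−0.38) lower, too few to read against 3.89%.

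**Figure D4:**
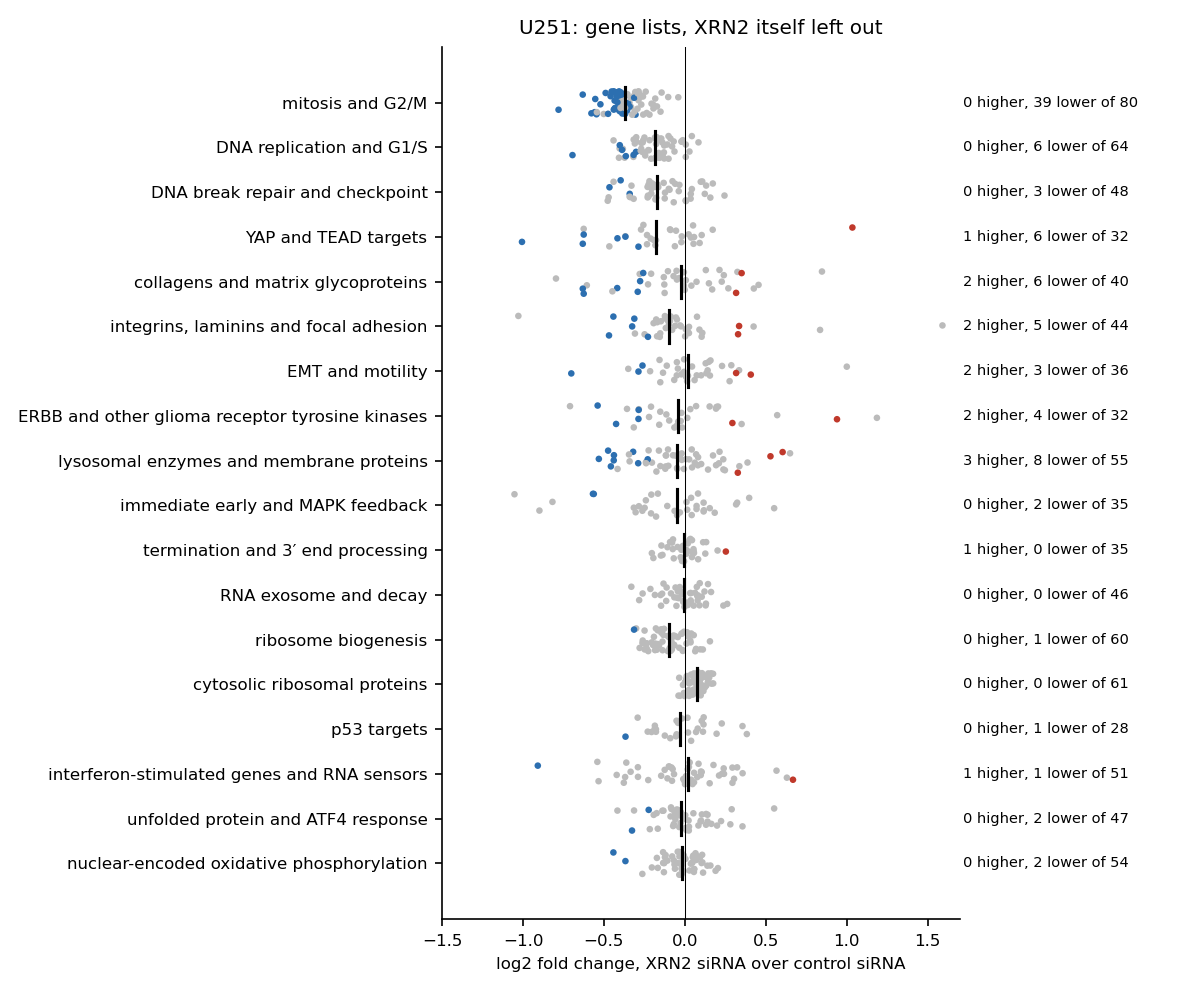
Log2 fold change of XRN2 siRNA over control siRNA for every tested member of 18 gene lists in U251, with called members in red (higher) or blue (lower), the list median as a bar and the counts at the right. All points of the mitotic list lie left of 0 (39 called lower of 80), while lists of adhesion, matrix and lysosomal genes have called members on both sides.

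Lysosomal genes were also split. Of 55 tested, 8 were lower and 3 higher, where 3.89% of all tested genes were called, and the median was −0.05. Without XRN2 siRNA replicate 2 the counts were 3 lower and 0 higher, without XRN2 siRNA replicate 1 4 lower and 2 higher, and without control siRNA replicate 2 7 lower and 8 higher. CTSC, a protease that activates granule enzymes, had 158.9 and 150.7 CPM with XRN2 siRNA, against 234.2 and 213.5 CPM with control siRNA and 222 CPM in mock. SCARB2, the membrane protein that carries glucocerebrosidase to lysosomes, had 401.6 and 353.6 CPM with XRN2 siRNA, against 519.2 and 518.7 CPM with control siRNA and 518.6 CPM in mock. NEU1 (−0.44), FUCA2 (−0.29) and GLB1 (−0.32), all glycosidases that trim sugars from glycoproteins and lipids, were lower, as were the proteases LGMN (−0.47) and CTSB (−0.23). GAA, the enzyme that breaks down glycogen, was higher, with 123.6 and 131.4 CPM after XRN2 siRNA, against 77.4 and 99.8 CPM after control siRNA and 77.7 CPM in mock. PSAP (0.33), the precursor of the saposins, was higher at a far larger count, with 4286 and 4510 CPM after XRN2 siRNA, against 3328 and 3686 CPM after control siRNA, and CTSO (0.60) passed narrowly at an adjusted p of 0.0496.

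Receptor and growth-signal genes changed in small numbers. Of 32 receptor tyrosine kinases and their partners 2 were higher and 4 lower, where 3.89% of all tested genes were called, with 1 each without XRN2 siRNA replicate 2, and 5 higher and 6 lower without control siRNA replicate 2. ROS1, an orphan receptor kinase, had 30.7 and 31.6 CPM with XRN2 siRNA, against 18.3 and 14.045 CPM with control siRNA and 19.1 CPM in mock, and its intron reads rose by 0.86 on the log2 scale. TGFA, a ligand of the EGF receptor, had 47.8 and 49.8 CPM with XRN2 siRNA, against 72.2 and 69.6 CPM with control siRNA and 72.1 CPM in mock, and its intron reads fell by 1.51 on the log2 scale. GAS6 (−0.42) and its receptor AXL (−0.29) were both lower, as was ERRFI1 (−0.29), a feedback inhibitor of EGFR, while EPHB2 (0.29) was higher. Of 35 immediate early and MAPK feedback genes, CCND1 (−0.56), the cyclin of G1, and FOSL1 (−0.57), an AP-1 subunit, were lower. TGFB3 (0.62), a TGF-beta ligand, was higher, the single call among 43 genes of that pathway, where 5 were called lower without control siRNA replicate 2.

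Few genes close to XRN2's own biochemistry passed, where 3.89% of all tested genes were called. Counts this small are too few to read against that share. Of 36 termination and 3′ end processing genes only XRN2, the siRNA's own target, and PPP1CB passed (5.56%). PPP1CB, a catalytic subunit of protein phosphatase 1, had 643.6 and 670.2 CPM with XRN2 siRNA, against 557.5 and 544.9 CPM with control siRNA and 596.9 CPM in mock. None of 46 exosome and RNA decay genes passed by edgeR, DESeq2 or limma-voom and none of 22 snoRNA host genes, with medians of −0.01 and −0.06. An unadjusted p under 0.05 was found for 6 and 1 of them, and for 2192 of all 12779 tested genes. In ribosome biogenesis DDX21 (−0.31), a nucleolar helicase, was the 1 call of 60, and 7 were lower without control siRNA replicate 2. The 61 ribosomal protein genes tested held no call by these tools, with 7 at an unadjusted p under 0.05, and 5 were called higher by edgeR without control siRNA replicate 2. Their log2 fold changes lay between −0.04 and 0.18, and 7 were below 0 against control siRNA and 28 against mock replicate 1.

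Stress and metabolic lists gave few calls, mostly near the 3.89% of all tested genes. Among 51 interferon-stimulated genes and RNA sensors IFI44L (−0.91) was lower. IFI44L was a low gene, with 5.84 and 6.33 CPM after XRN2 siRNA, against 9.73 and 13.2 CPM after control siRNA and 9.17 CPM in mock. Of 47 genes of the unfolded protein and ATF4 response VLDLR (−0.33) and CANX (−0.22) were lower, and of 28 p53 targets PMAIP1 (−0.37) was. SOD2 (0.32) was higher and IL11 (−0.45) lower among 28 NF-kB targets and chemokines. PGAM1 (−0.31) was the call among 41 hypoxia and glycolysis genes, and COX8A (−0.37) and NDUFA2 (−0.44) those among 54 nuclear genes of oxidative phosphorylation. These small counts also moved when 1 library was left out, as did the count over all genes. The lists of mitochondrial mRNAs, cholesterol synthesis, metallothioneins, Notch genes and siRNA machinery held no call by edgeR. Neither did the markers of neurons, oligodendrocytes, endothelium, blood and fibroblasts. Among the 115 tested members of these lists, 19 had an unadjusted p under 0.05, against 2192 of all 12779 tested genes. By DESeq2 1 of the 115 passed, and by limma-voom none.

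Among related genes of chromosome 17, picked after their values were seen, 6 of 10 tested passed, all higher. Over all tested genes 1.52% were higher. Since these genes were picked by their values and several copies share reads, 6 of 10 is not a rate to set against that share. The 4 that did not pass were USP32P1 (log2 fold change 0.40, edgeR adjusted p = 0.28), USP32P2 (0.71, 0.271), FAM106A (1.23, 0.0718) and NOS2P2 (1.54, 0.0512). CCDC144A, CCDC144B and CCDC144CP belong to duplicated blocks that also hold copies of USP32, NOS2 and LGALS9. CCDC144CP (ENSG00000154898; 20321164 to 20403557, plus strand) had 43.4 and 40.3 CPM with XRN2 siRNA, against 14.1 and 15.7 CPM with control siRNA, 13.8 CPM in mock replicate 1 and 15.3 CPM in mock replicate 2 (log2 fold change 1.496, SE 0.122, adjusted p = 3.1e-06). USP32P3 (ENSG00000189423; 20415547 to 20431008, plus strand), the next gene along, had 57.3 and 69.4 CPM with XRN2 siRNA, against 24.6 and 21.3 CPM with control siRNA. NOS2P3, next again, had 8.62 and 9.17 CPM with XRN2 siRNA, against 2.70 and 1.49 CPM with control siRNA and 5.03 CPM in mock. For these 3 pseudogenes 61.9% to 81.2% of reads were unique, and their unique reads summed to 468, 671 and 72 in the XRN2 siRNA libraries, against 146, 239 and 19 in the control siRNA libraries, for CCDC144CP, USP32P3 and NOS2P3.

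The other blocks are less certain because their reads are shared between copies. CCDC144A had 32.5 and 32.9 CPM with XRN2 siRNA, against 14.8 and 12.4 CPM with control siRNA, and CCDC144B had 18.2 and 16.4 CPM with XRN2 siRNA, against 7.04 and 6.44 CPM with control siRNA. Only 0.487% and 2.49% of these reads were unique to CCDC144A and CCDC144B. Intron reads of AC107983.2, which overlaps CCDC144B, were 42.4 and 51.7 CPM with XRN2 siRNA, against 17.5 and 12.7 CPM with control siRNA, the smallest p of all intron tests (log2 fold change 1.63, adjusted p = 8.83e-14). Intron reads of USP32P3 were 37.7 and 39.2 CPM with XRN2 siRNA, against 17.4 and 11.2 CPM with control siRNA, and those of LGALS9B, a low gene, rose by 3.30 on the log2 scale. For CCDC144A, CCDC144CP and USP32P3 the call in exon reads held with each of the 4 libraries left out in turn.

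**Figure D5:**
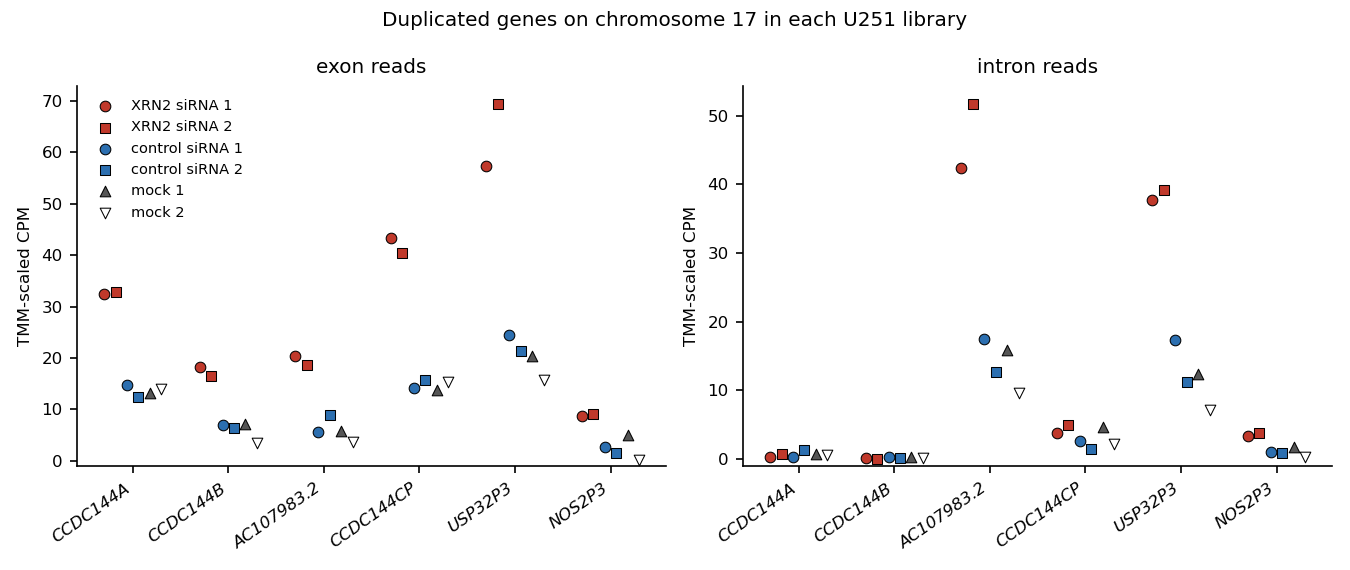
TMM-scaled CPM of exon reads (left) and intron reads (right) of the 6 called duplicated genes on chromosome 17 in each U251 library. The 2 red XRN2 siRNA points lie above the 4 control points for every gene in exon reads, for example at 57.3 and 69.4 CPM against 15.7 to 24.6 CPM for USP32P3.

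CCDC144CP starts 2138 bases after the end of SPECC1 on the same strand. SPECC1 did not pass the test, with 347.9 and 328.8 CPM after XRN2 siRNA, against 340.4 and 335.4 CPM after control siRNA. Such neighbours were examined across the genome, because loss of XRN2 is known to let polymerase run past the ends of genes. Of 865 tested genes that start within 10000 bases after the end of a same-strand gene of at least 50 CPM, 13 were higher (1.503%) and 9 lower, and 1.52% of all tested genes were higher, so the share among neighbours was near that of all genes. Their median log2 fold change was 0.01. Among the 125 neighbours under 5 CPM in control siRNA 4 were higher (3.20%), against 20 of 1725 tested genes of that level (1.16%). These 4 counts are too few for a rate, and no test was made.

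The higher neighbours include GCNA, a germ-cell nuclear protein, which starts 2514 bases after OGT. GCNA had 5.42 and 6.96 CPM with XRN2 siRNA, against 1.65 and 1.65 CPM with control siRNA and 1.44 CPM in mock (log2 fold change 1.89, adjusted p = 0.00469). ELF3, an epithelial ETS factor 1798 bases after RNPEP, had 8.20 and 9.33 CPM with XRN2 siRNA, against 4.64 and 3.30 CPM with control siRNA. PAQR6, 1107 bases after SMG5, had 8.76 and 13.0 CPM with XRN2 siRNA, against 4.04 and 5.78 CPM with control siRNA. Neither OGT, RNPEP nor SMG5 passed. These neighbours are named after their values were seen, and where their reads begin cannot be read from counts per gene.

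Intron reads were a separate readout, scaled by the exon reads. Of 10062 genes tested 55 passed (0.547%), 38 (0.378%) higher and 17 (0.169%) lower, and the median over all was −0.00022. Of the 42 whose exon reads were tested too, 17 passed there in the same direction and 1 in the opposite one, and both readouts come from the same libraries. GLDN, an adhesion protein of nerve nodes, had intron reads of 86.3 and 100.3 CPM with XRN2 siRNA, against 49.9 and 49.1 CPM with control siRNA and 42.1 CPM in mock (log2 fold change 0.91). PEG10, a gene derived from a retrotransposon, had intron reads of 4.17 and 3.64 CPM with XRN2 siRNA, against 14.8 and 11.2 CPM with control siRNA, and 7.19 CPM in mock replicate 1, about midway. FANCI (−0.88), of crosslink repair, ZNF580 (−0.90), a zinc finger gene, and MIRLET7BHG (−0.70), the host of let-7 microRNAs, were the next lower ones. The number of calls was 23 without XRN2 siRNA replicate 2. The direction of the split depended on the control libraries, with 42 higher and 63 lower without control siRNA replicate 2 and 55 higher and 7 lower without control siRNA replicate 1.

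The U251 response was set beside that of LN229 by a test of the difference in 8 libraries. No gene of 14075 passed edgeR's test of the difference (898 at an unadjusted p under 0.05), and without LN229 control siRNA replicate 2 1692 did. A response particular to U251 is therefore not shown for any gene. In that fit LN229 itself had 102 called genes (0.725%), 46 (0.327%) higher and 56 (0.398%) lower. NEU1, which was lower in LN229 too, had 80.4 and 78.1 CPM with XRN2 siRNA in U251, against 98.8 and 116.5 CPM with control siRNA, and log2 fold changes of −0.44 in U251 and −1.64 in LN229 (adjusted p of the difference 0.513). P2RX7, TGFBR2 and PRKCD, higher in LN229 with log2 fold changes of 1.51, 0.98 and 1.29, did not pass in U251, where the values were −0.09, −0.21 and −0.17, and the differences did not pass either (adjusted p 0.721, 0.513 and 0.649). The median mitotic gene was at −0.37 in U251 and −0.68 in LN229. Of the named higher genes COL14A1 had a log2 fold change of 1.04 in U251 and 1.09 in LN229, IGFBP3 1.04 and 0.08, and HMOX1 0.76 and 2.58. Only KRT15 (1.33 and −0.93) and MMP7 (1.59 and −2.45) of these genes had a negative value in LN229. Neither was called in LN229 (edgeR adjusted p 0.29 and 0.455), and their differences did not pass (0.662 and 0.78).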

How the data were processed

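RNA of U251 and LN229 was taken 72 hours after transfection, extracted with a miRNeasy column and made into TruSeq RNA v2 libraries from 1 ug for a MiSeq, per the labels' protocols. For each library the authors deposited whole-number read counts per gene, split into total and unique exon and intron reads, per the file headers. Which aligner and counter were used is not given in the sources used here. Coordinates are those of GRCh38, since 56000 of 57836 gene positions (96.83%) match GENCODE release 29, although GRCh37 and hg19 stand in the submitters' processing notes.

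Total exon counts were tested in edgeR 4.0.16 (R 4.3.3): filterByExpr (count of at least 10, total of at least 15), TMM factors (0.989 to 1.01), robust quasi-likelihood F-test on the 4 compared libraries, and Benjamini-Hochberg adjustment over all tested genes at 0.05. For the second control, mock replicate 1 joined as a further group. Intron counts used the exon library sizes, and the difference between lines used 8 libraries. SE is the fold change over the root of F, and printed CPM are TMM-scaled across the 6 U251 libraries. Scripts were tested on simulated counts. Each count is an unnormalised number of reads without molecular identifiers.

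Named genes are XRN2, then by smallest p 14 higher and 14 lower called genes that changed at least 1.5-fold, at a mean of at least 5 CPM and wholly apart from the 3 controls, up to 4 called members of each list, and CDC20, KIF2C, CENPA, FOXM1, NEU1, GLB1, P2RX7, TGFBR2 and PRKCD. Of 1301 list symbols in 36 lists, 6 had no match. The members, lists and tests were chosen with earlier results of these data known. Replicates were compared first: the chi-square per gene was 1.73 in the XRN2 siRNA pair, 2.53 in the control siRNA pair and 27.2 in the mock pair, and each pair differed by more than sampling noise. Alternatives were DESeq2 1.42.0, limma-voom (limma 3.58.1), other scaling, filters, unique reads, a replicate block, other libraries for the spread or the control, and each library left out. Promoter windows are from RefSeq, matched by symbol. Some called genes are not reported here.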

Additional observations from a re-analysis of the deposited data

Results flagged for a closer look

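Mock replicate 2 of U251, which entered some alternative fits but none of the main comparisons, held stress transcripts far above the other U251 libraries. DDIT3, the CHOP factor of the unfolded protein response, was at 389.7 CPM there, against 12.4 to 17.2 CPM in the 5 other libraries. HSPA5, the main chaperone of the endoplasmic reticulum, was at 18854 CPM, against 1381 to 1540 CPM, and CHAC1, which degrades glutathione, at 125 CPM, against 1.98 to 3.75 CPM. Of 10107 genes with at least 10 CPM in either mock library, 263 were at least 2-fold higher and 61 at least 2-fold lower in mock replicate 2 than in mock replicate 1, where 7 differed that much between the XRN2 siRNA libraries and 7 between the control siRNA libraries. The median gene of the unfolded protein and ATF4 list was 2.00 higher on the log2 scale than in mock replicate 1, and the median mitotic gene was 0.24 lower. With a single such library this has no replicate check.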

How the results depend on the processing

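Against the 497 genes called for XRN2 siRNA over control siRNA in U251, the number was 181 with DESeq2, 887 with no filter, 850 with mock replicate 1 added to the controls, 7 with both mock libraries as the control, 7 with the spread taken from the 6 U251 libraries and 1 with the spread from all 12. Leaving out 1 library gave 95 to 1124 genes. Limma-voom, DESeq2 size factors, no TMM, a 5 CPM filter, unique reads and the spread of 5 libraries gave 408 to 588. Against mock replicate 1 the 204 calls became 37 to 863 with 1 library left out. Intron calls (55) became 23 to 105, and the line difference (0) became 0 to 1692, the highest value without LN229 control siRNA replicate 2. The cause of these shifts was not tested.

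Over all tested genes same-numbered libraries did not deviate together (correlation 0.005), and the main fit does not take the numbers as pairs. The summed mitotic list was lower in replicate 2 of both groups. It was at 7416 and 6304 CPM in XRN2 siRNA replicates 1 and 2, and at 9333 and 8329 CPM in control siRNA replicates 1 and 2. Whether the numbers mark pairs for such genes was not tested. With a replicate block 974 genes were called, 77 in intron reads and 0 for the line difference, the last 2 added after seeing the data.

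Of the 74 named called genes besides XRN2, 59 passed with DESeq2, 40 without XRN2 siRNA replicate 2, 6 with the spread of the 6 U251 libraries and none with that of all 12. The direction turned with both mock libraries as the control for HMOX1 (−0.17), MDC1 (0.037), PGAM1 (0.0027) and PRKCD (0.18), the last not called, and for P2RX7, not called, with 1 library left out (−0.35 to 0.12). Genes near the 0.418 to 0.536 CPM floor lay under the filter's count of at least 10 and were mostly not tested in the main fit. With 2 libraries a group, small changes could be missed above it as well. P2RX7, for example, had an SE of 0.30 at a control siRNA mean of 4.24 CPM.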

Other observations

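The higher genes outside the lists, named here after their values were seen, include class I HLA and butyrophilin genes of chromosome 6. HLA-B, which presents peptides to T cells, had 892.8 and 929.7 CPM with XRN2 siRNA, against 677.5 and 779.6 CPM with control siRNA and 691.5 CPM in mock replicate 1. HLA-C had a log2 fold change of 0.24 (edgeR adjusted p = 0.0476). BTN3A1 (0.44), BTN3A2 (0.32) and BTN3A3 (0.48), neighbouring butyrophilins known for their part in recognition by gamma delta T cells, passed, with edgeR adjusted p of 0.0444, 0.0492 and 0.0396. None of these 3 passed against mock replicate 1. BTN2A2, a butyrophilin gene that starts 4776 bases after BTN3A2, did not pass against control siRNA (log2 fold change −0.08, edgeR adjusted p = 0.749).

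DRD2, a dopamine receptor, had 115.8 and 132.4 CPM with XRN2 siRNA, against 90.2 and 91.0 CPM with control siRNA and 79.99 CPM in mock replicate 1. TOX, a nuclear factor of T-cell development, had 12.9 and 16.4 CPM with XRN2 siRNA, against 4.94 and 5.29 CPM with control siRNA and 5.21 CPM in mock replicate 1. Both passed against control siRNA and against mock replicate 1, with edgeR adjusted p of 0.00407 and 0.00472 for DRD2 and 0.000626 and 0.0128 for TOX.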
